A study of Mus musculus with 5 samples.

Results

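The interleukins and interleukin receptors described here are the genes of the array annotation whose symbol begins with Il and a number, together with the IL-6 relatives Lif, Lifr, Osm, Osmr and Il6st. The rule uses names alone and took 94 probe sets with 89 symbols, out of 21630 genes on the array, and the brightest probe set by its mean over the 5 arrays stood for each symbol. They comprise 41 ligand genes, 44 receptor genes, 3 antagonists or binding proteins and 1 enzyme, Il4i1, an amino acid oxidase that shares only the name. Interleukins are secreted proteins that carry signals between cells, and each acts through a surface receptor built from 1 or more chains. Fibroblasts are known both as a source of interleukins, such as IL-6 and IL-33, and as responders through the shared signalling chain gp130 (Il6st) and the IL-1 receptor (Il1r1). Receptors of the IL-1 and IL-17 type pass the signal to NF-kB, and receptors of the IL-6, IL-4 and IL-2 type to JAK kinases and STAT factors.

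The arrays carried RNA of mouse embryonic fibroblasts (MEFs) with the labelled genotype MDR2-/- (KO, 3 arrays, replicates 1, 2 and 3) or MDR2+/+ (WT, 2 arrays, replicates 2 and 3). Both groups came from littermate embryos, were passaged on a 3T3 schedule, in which cells are split at a fixed density and interval until a line grows on, and were collected at passage 40 with no added agent named. Mdr2 is the older name of Abcb4, a phospholipid transporter of liver cells. The labels do not say whether replicates came from separate cultures or embryos. The p-values below therefore measure spread among these 5 samples alone, and that spread may be technical.

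Several facts of the whole series bear on every value below. Abcb4 had a log2 signal of 6.002, 4.63 and 5.74 on the arrays labelled KO, against 4.05 and 3.95 on those labelled WT. Only the value of KO replicate 1 was above the background described below (limma adjusted p = 0.358). The direction of this mostly dim signal went against the labels, and its cause was not tested. KO and WT below therefore mean arrays so labelled. Xist, the RNA of the inactive X chromosome, was at 7.32 to 7.68 on KO arrays and at 2.98 to 3.17 on WT arrays, while the Y-linked Ddx3y was at 2.26 to 2.61 on KO arrays and at 6.65 to 6.96 on WT arrays. Genotype label and sex-linked expression therefore cannot be told apart. Of 11 fibroblast markers 9 lay above background on all arrays. The median log2 difference of the 11 was -0.15. In 3 of them the groups did not overlap and differed at least 2-fold, against 3.92% of all genes. Thy1 was at 9.70 to 10.55 on KO arrays against 5.22 to 5.60 on WT arrays (limma adjusted p = 0.0523), while Dcn and Col3a1 were lower on KO arrays, by log2 differences of -1.82 and -1.01. Lum was below background on every array. Background was set at the 95th percentile of 45 antigenomic control probe sets, designed to have no target in the genome, and lay between 5.71 and 6.08 on the log2 scale. The median of these controls was 2.14 on every array, and that of all genes 4.27 to 4.33. The Y-linked Kdm5d was below background on every array, yet at 4.98 and 5.54 on WT arrays against 2.49 to 2.85 on KO arrays. A value below background is therefore not read as absence of RNA. Markers of T cells (7), B cells (4), mast cells (5), endothelium (5) and epithelium (7) were below background on every array, as were 7 of 8 macrophage markers, the exception being Cd68 at 6.25 on WT replicate 2. Below background, the epithelial marker Cdh1 was at 4.99 to 5.62 on KO arrays and at 3.88 to 4.38 on WT arrays. Of the other epithelial markers, Krt8 went the same way, with a log2 difference of 0.51 and groups that overlapped. The log2 difference was 0.063 for Krt18, -0.12 for Krt5 and -0.11 for Krt14. Epcam and Krt19 were equal on all arrays, and the median of the 7 was 0. Over the epithelial list the summed linear signal was 115 to 146 on KO arrays and 95.4 to 107 on WT arrays. The summed linear signal of the macrophage list was 99.0 to 119 on KO arrays and 104 to 149 on WT arrays. The part of sex-linked expression, Thy1 or these cell types in the differences below was not tested.

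Most interleukin and receptor genes gave no signal above background in these cells. Of the 89 genes, 71 lay below the antigenomic percentile on every array, 9 lay above it on all 5 arrays and 9 on some of them. Of all 21630 genes, 13909 lay below it on every array and 5273 above it on all 5, so the family held a smaller share of genes above background than the array as a whole. None of the ligands lay above background on all arrays (0 of 41) and 37 did on none, while 8 of 44 receptor genes, also a smaller share than over all genes, were above it throughout (Il1r1, Il1rl1, Il6st, Osmr, Il11ra1, Il11ra2, Il4ra and Il17rc). The remaining gene above background on all arrays was Il1rn, the secreted antagonist of the IL-1 receptor. The genes above background on some arrays were Il33, Il18, Lif, Il28a, Lifr, Il13ra1, Il10rb, Il17ra and Il3ra. On each array, 31.5% to 43.8% of the 89 values were exactly equal to the value of some other gene, against at most 33.5% of the values of all genes. Signals of different probe sets are not compared, since probe sets differ in brightness for the same amount of RNA.

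No gene of the family passed limma's test between KO and WT after Benjamini-Hochberg adjustment over all genes (0 of 89 at 0.05, with a background of 0.301% of all genes). At an unadjusted p under 0.05 there were 13, a share of 14.6% against 13.6% of all genes, and thus close to the background. The count was 10 to 15 in the alternatives that kept both WT arrays, for which the share of all genes is not given. Of the 13, 8 were higher and 5 lower on KO arrays, against 5.36% and 8.29% of all genes. Among the higher, Il1rl2, Il20ra and Il34 lay below background on every array, as did Il13ra2, Il31ra and Il7 among the lower. Il34 differed by only 0.078 on the log2 scale, and the near copies Il11ra1 and Il11ra2 were counted separately. In 21 genes the groups did not overlap, 23.6% against 25.0% of all genes, with 13 higher (background 10.6%) and 8 lower (background 14.4%). The groups did not overlap and differed at least 2-fold in 7 genes (7.87%), against 3.92% of all genes. Of these, 4 were higher on KO arrays (Il33, Il13ra1, Il20ra and Il1rl1), against a background of 2.14%, and 3 were lower (Il7, Il13ra2 and Il1r1), against 1.78%. Over the 89 genes the median log2 difference was 0.0093, beside 0 over all genes, with 48 on the higher side and 32 on the lower side. The other 9 genes (10.1%, against 7.35% of all genes) had 1 and the same value on all 5 arrays, namely Il10, Il11, Il15ra, Il1f6, Il21, Il28ra, Il31, Il4i1 and Il5ra, all below background. In RNA of whole cultures, fewer cells of a kind and less RNA per cell cannot be told apart.

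**Figure D1:**
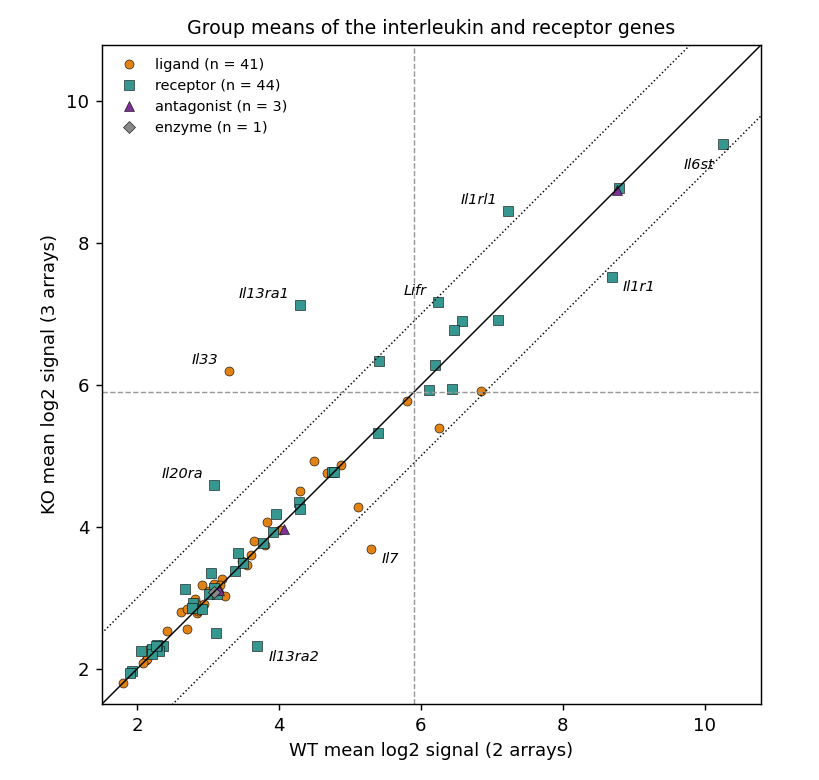
Mean log2 signal of the 89 genes on the 3 KO arrays (vertical axis) against the 2 WT arrays (horizontal axis), coloured by role. The solid line marks equal means, the dotted lines a 2-fold difference and the dashed lines the mean antigenomic 95th percentile of 5.90. Most genes sit near the solid line below background, while Il33 and Il13ra1 stand 2.90 and 2.83 above it.

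In the IL-1 family the groups did not overlap for the alarmin Il33 and its receptor Il1rl1, with higher KO means, and for the IL-1 receptor Il1r1, with a lower KO mean. None of the 3 passed the adjusted test, and of these only Il33 had an unadjusted p under 0.05. IL-33 is a nuclear cytokine that cells release on damage. Il33 had log2 signals of 6.13, 5.91 and 6.57 on KO replicates 1, 2 and 3, against 3.46 and 3.13 on WT replicates 2 and 3. Every KO array was above every WT array by a wide gap. It averaged 6.20 ± 0.33 on KO arrays (SD, n = 3) against 3.30 ± 0.24 on WT arrays (SD, n = 2). The log2 difference was 2.90 ± 0.25 (SE), or 7.49-fold, with a 95% confidence interval of 2.17 to 3.64 (limma adjusted p = 0.0675). All 3 KO values exceeded the background of their own array and both WT values lay below theirs, so the fold can understate the change in RNA. Over the alternatives tried the adjusted p ran from 0.0205 to 0.421, and it was under 0.05 in 4 of them. The probe set, 10462442, is annotated to the whole of the gene on the plus strand, chr19:29999627-30035208 in mouse build NCBIM37.

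RefSeq gives Il33 transcription starts at more than 1 place, and the windows of the gene that stood out most among the ligands are shown from 250 bases before to 50 bases after the start, with matches to the TATA motif in capitals (GRCm38.p6, plus strand, chr19:29924863-29925162 and chr19:29945540-29945839).
Il33 start 1: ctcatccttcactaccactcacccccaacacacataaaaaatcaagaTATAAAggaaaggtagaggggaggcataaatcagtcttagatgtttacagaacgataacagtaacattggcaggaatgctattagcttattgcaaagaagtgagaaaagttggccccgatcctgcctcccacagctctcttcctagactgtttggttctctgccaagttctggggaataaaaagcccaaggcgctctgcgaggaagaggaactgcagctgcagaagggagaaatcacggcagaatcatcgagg
Il33 start 2: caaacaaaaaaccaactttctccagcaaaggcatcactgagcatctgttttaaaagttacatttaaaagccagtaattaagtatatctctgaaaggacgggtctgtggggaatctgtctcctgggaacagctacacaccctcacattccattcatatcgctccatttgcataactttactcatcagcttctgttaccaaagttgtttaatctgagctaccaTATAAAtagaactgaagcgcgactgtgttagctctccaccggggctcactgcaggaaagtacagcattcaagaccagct
In the second window the motif TATAAA begins 29 bases before the start, and in the first 203 bases before it. This motif, searched on both strands, was present in 13.6% of 32851 promoter windows of the same length. No match to AP-1 (TGANTCA), NF-kB (GGG, any 2 bases, TT, any base, CC), STAT (TTCNNNGAA) or GC box (GGGCGG) letters was found in either window.

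Il1rl1 encodes ST2, the receptor chain that binds IL-33. Its log2 signals were 8.31, 7.89 and 9.17 on KO arrays, against 6.62 and 7.84 on WT arrays. The groups did not overlap, but the lowest KO array and the highest WT array were close to each other. The log2 difference was 1.23 ± 0.61 (SE), with an interval of -0.52 to 2.99 (limma adjusted p = 0.539), and it was 0.62 without WT replicate 2, 1.84 without WT replicate 3 and 0.87 without KO replicate 3. Il1rap, the co-receptor that both ST2 and the IL-1 receptor need, stayed under background at 4.28 to 4.49 on KO arrays and at 4.28 on both WT arrays.

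Il1r1 encodes the signalling receptor for IL-1. It was at 7.81, 6.87 and 7.91 on KO arrays, against 8.51 and 8.88 on WT arrays, with all 3 KO arrays below both WT arrays. The log2 difference was -1.16 ± 0.41 (SE; interval -2.35 to 0.028; limma adjusted p = 0.378). Il1rn, which blocks that receptor, was at 9.11, 8.44 and 8.70 on KO arrays and at 8.52 and 9.004 on WT arrays. These groups overlapped, and the difference of -0.012 had an interval of -0.83 to 0.80 and turned sign in 5 alternatives. The receptor's agonists were dim, with Il1a at 2.14 to 2.35 and Il1b at 2.85 to 3.42 over all arrays. Il18, a cytokine matured by caspase-1, was at 5.58, 6.19 and 5.98 on KO arrays, against 6.32 and 7.38 on WT arrays. Here too the groups did not overlap (log2 difference -0.93 ± 0.42, SE; limma adjusted p = 0.506). Its decoy Il18bp and its receptor chains Il18r1 and Il18rap were below background on every array, as were Il1f5, Il1f6, Il1f8, Il1f9 and Il1f10.

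**Figure D2:**
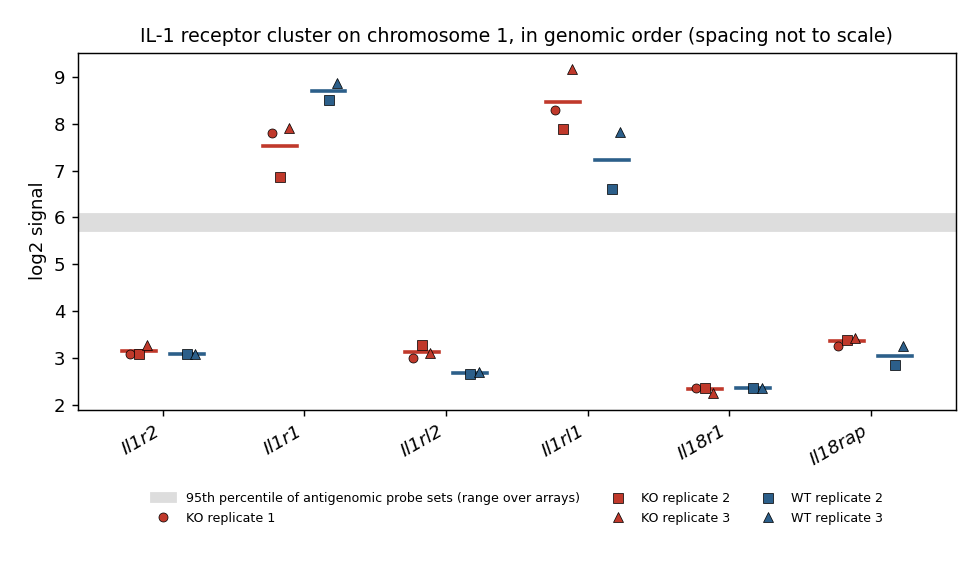
Log2 signal (vertical axis) of the 6 IL-1 receptor genes that lie side by side on chromosome 1, in genomic order, for KO arrays (red, left of each pair) and WT arrays (blue, right), with bars at the group means. The grey band is the range of the antigenomic 95th percentile; Il1r1 and Il1rl1 lie above it and differ in opposite directions, and the other 4 genes lie below it on every array.

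The IL-1 receptor genes also lie next to each other, and Il1r1 and Il1rl1 differed in opposite directions within that cluster. On chromosome 1 of build NCBIM37 the order is Il1r2, Il1r1 (40281925 to 40373022), Il1rl2, Il1rl1 (40486442 to 40522257), Il18r1 and Il18rap. Between them, Il1rl2, the IL-36 receptor, was at 2.99 to 3.26 on KO arrays and at 2.65 to 2.69 on WT arrays, all below background. In all, 43 of the 89 genes lie within 200 kb of another member, in 16 clusters. Il6st and Il31ra on chromosome 13 are such neighbours and were both lower on KO arrays. Il20ra and its neighbour Il22ra2 on chromosome 10 differed by 1.51 and 0.070 on the log2 scale.

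Among the receptors for IL-4 and IL-13, the KO mean was higher for the signalling chain and lower for the decoy chain, with no overlap of groups, and neither passed the adjusted test. Il13ra1 pairs with the IL-4 receptor chain to form a receptor for both cytokines. It was at 7.41, 6.63 and 7.34 on KO arrays, against 4.29 and 4.30 on WT arrays. The KO arrays were all above background and both WT arrays below it, so the fold below can understate the change in RNA, and its interval covers the spread between arrays only. It averaged 7.13 ± 0.43 on KO arrays (SD, n = 3) against 4.30 ± 0.0026 on WT arrays (SD, n = 2). The log2 difference was 2.83 ± 0.30 (SE), or 7.12-fold (interval 1.98 to 3.69; limma adjusted p = 0.0918). Over the alternatives that p ran from 0.0295 to 0.399, and it was under 0.05 in the same 4 settings as for Il33.

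Il13ra2 binds IL-13 with high affinity and is known mainly as a decoy. It was at 2.44, 2.06 and 2.46 on KO arrays, against 3.88 and 3.51 on WT arrays, so that all 5 values lay below background. The log2 difference was -1.38 ± 0.20 (SE; interval -1.96 to -0.79; limma adjusted p = 0.134). Il4ra, the IL-4 receptor chain with which Il13ra1 pairs, was at 6.62, 5.97 and 6.26 on KO arrays and at 6.26 and 6.13 on WT arrays. Its groups overlapped, with a difference of 0.088 and an interval of -0.57 to 0.74. Neither Il4 nor Il13 was above background on any array.

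Il13ra1 and Il13ra2 are both X-linked, and the arrays differ in Xist as given above. They were 2 of 5 X-linked members, and of 842 X-linked genes tested 4.75% had groups that did not overlap and differed at least 2-fold (3.09% higher and 1.66% lower on KO arrays), and their median log2 difference was 0.023. The other X-linked members were Il2rg, Il1rapl1 and Il1rapl2, all below background on every array. For Il2rg, the chain shared by the IL-2 type receptors, the values were 2.33 on all KO arrays and 2.21 and 2.33 on WT arrays.

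The 2 IL-13 receptor genes differed in opposite directions, and their promoter windows are shown for comparison (RefSeq, GRCm38.p6; Il13ra1 at chrX:36111858-36112157 on the plus strand, Il13ra2 at chrX:147429143-147429442 on the minus strand), with matches to the GC box, AP-1 and TATA motifs in capitals.
Il13ra1: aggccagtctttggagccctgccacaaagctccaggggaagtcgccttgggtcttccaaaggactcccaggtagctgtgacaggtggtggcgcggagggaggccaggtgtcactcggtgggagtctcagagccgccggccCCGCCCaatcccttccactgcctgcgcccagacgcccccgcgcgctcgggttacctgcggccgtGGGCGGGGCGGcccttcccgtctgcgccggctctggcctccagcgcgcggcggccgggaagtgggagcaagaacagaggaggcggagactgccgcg
Il13ra2: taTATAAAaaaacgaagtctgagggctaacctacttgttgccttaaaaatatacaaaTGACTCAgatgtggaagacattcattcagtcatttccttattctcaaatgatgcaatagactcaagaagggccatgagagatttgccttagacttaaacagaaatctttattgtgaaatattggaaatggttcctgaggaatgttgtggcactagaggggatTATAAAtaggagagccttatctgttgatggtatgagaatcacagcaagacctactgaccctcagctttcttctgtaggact
The Il13ra1 window held 3 GC boxes, of which those at 46 and 41 bases before the start share a base, and no TATA letters. The Il13ra2 window held TATAAA at 31 and at 248 bases before the start and an AP-1 match, TGACTCA, at 193 bases before it. GC boxes were present in 35.7% of all promoter windows and AP-1 letters in 7.81%. Promoter windows were found for 71 members, giving 87 windows. Of these, 16 (18.4%) held AP-1 letters, 13 (14.9%) NF-kB letters against 4.79% of all windows, 10 (11.5%) STAT letters against 8.3%, 14 (16.1%) TATA letters and 27 (31.0%) a GC box. These are matches of letters in a short window, not binding sites.

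**Figure D3:**
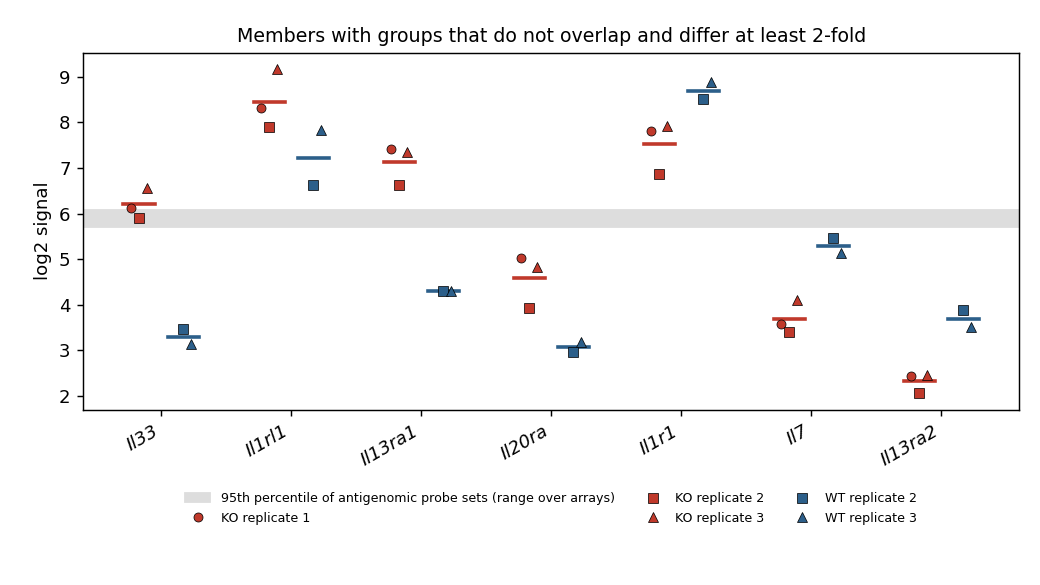
Log2 signal (vertical axis) on each array of the 7 genes whose groups did not overlap and differed at least 2-fold, KO arrays in red at the left of each pair and WT arrays in blue at the right, with bars at group means. The grey band marks background (5.71 to 6.08); Il33 and Il13ra1 lie below it on WT arrays and at or above it on KO arrays, Il1rl1 and Il1r1 stay above it, and Il20ra, Il7 and Il13ra2 stay below it.

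In the IL-6 family 6 of 14 genes lay above background on at least some arrays, 5 of them receptor genes, and the shared chain gp130 was lower on KO arrays. All of these cytokines except IL-31 signal through gp130, encoded by Il6st. Il6st was at 9.66, 9.05 and 9.51 on KO arrays, against 10.38 and 10.15 on WT arrays. All KO arrays were lower (log2 difference -0.86 ± 0.23, SE; interval -1.52 to -0.20; limma adjusted p = 0.267). Osmr, the oncostatin M receptor, was at 9.24, 8.29 and 8.80 on KO arrays and at 8.77 and 8.81 on WT arrays. Its difference of -0.014 had an interval of -0.95 to 0.92 and turned sign in 4 alternatives. Lifr, the receptor for LIF, was at 7.70, 6.84 and 6.95 on KO arrays, against 5.58 and 6.89 on WT arrays, and the groups overlapped (0.93 ± 0.55, SE; limma adjusted p = 0.554). The difference was 0.28 without WT replicate 2 and 1.58 without WT replicate 3.

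Il11ra1, the IL-11 receptor, was at 6.96, 6.95 and 6.82 on KO arrays, against 6.54 and 6.63 on WT arrays. This small difference of 0.32 ± 0.060 (SE) separated all arrays (limma adjusted p = 0.180). Il11ra2, a near copy of that gene, differed by 0.30. Its 2 probe sets gave equal values on each array, and since near copies can share probes their signals cannot be told apart. Il6ra, the receptor chain specific for IL-6, was below background on every array at 4.47 to 5.13 on KO arrays and 4.75 on both WT arrays. Il31ra was at 2.33 to 2.61 on KO arrays and at 3.09 to 3.14 on WT arrays, and Il27ra was also below background.

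Among the ligands, Il6 and Lif spread more widely within a group than the group means lay apart. Il6 was at 5.61, 2.80 and 4.43 on KO arrays and at 5.39 and 4.84 on WT arrays, with KO replicate 2 the lowest of the 5 and every value below background. The difference of -0.83 had an interval of -3.65 to 1.99 (limma adjusted p = 0.691), and it was -0.090 without KO replicate 2. Lif, known for keeping mouse embryonic stem cells undifferentiated, was at 5.92, 4.60 and 5.66 on KO arrays and at 7.20 and 5.30 on WT arrays. Its difference of -0.86 (interval -3.18 to 1.46; limma adjusted p = 0.640) became 0.095 without WT replicate 2, the only WT array above background. Il11, Osm, Il27 and Il31 lay below background on all arrays. The value of Il11 was 3.13 on every one of them, and that of Osm 2.79 to 3.15 on KO arrays and 3.15 to 3.32 on WT arrays.

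**Figure D4:**
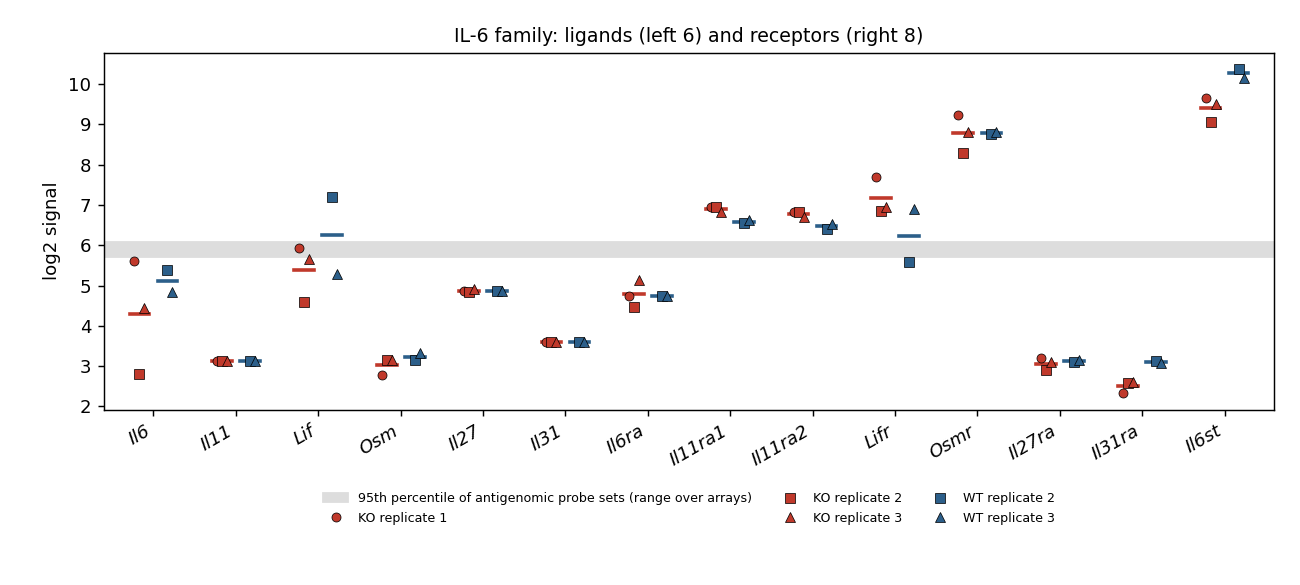
Log2 signal (vertical axis) on each array for the 6 ligand genes and 8 receptor genes of the IL-6 family, KO arrays in red at the left of each pair and WT arrays in blue at the right, with bars at group means and background as a grey band. Il6 and Lif spread widely within a group, and Il6st is lower on all 3 KO arrays than on both WT arrays.

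Of the remaining families a few receptors and 1 ligand stood apart. Il20ra, a receptor chain for IL-19, IL-20 and IL-24, was at 5.02, 3.93 and 4.82 on KO arrays, against 2.97 and 3.19 on WT arrays. All values were under background, with every KO array higher (1.51 ± 0.40, SE; interval 0.35 to 2.67; limma adjusted p = 0.265). Il10rb, a chain shared by the IL-10, IL-22 and interferon lambda receptors, was at 6.14, 5.90 and 5.81 on KO arrays, against 6.27 and 6.60 on WT arrays. Its groups were separated by a small gap (-0.49 ± 0.16, SE; limma adjusted p = 0.352). Il28a, an interferon lambda gene now named Ifnl2, passed background on 1 WT array and differed by -0.023, and the other 11 genes of the IL-10 family were below background on every array.

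Il17ra, the chain common to IL-17 receptors, was at 6.58, 6.23 and 6.19 on KO arrays, against 5.22 and 5.60 on WT arrays. Each KO array lay above background and both WT arrays below it, with the same limit on the fold as for Il13ra1 (0.92 ± 0.19, SE; interval 0.37 to 1.48; limma adjusted p = 0.203). Its partner Il17rc was at 6.999, 6.88 and 6.88 on KO arrays and at 6.999 and 7.18 on WT arrays, with overlap (-0.17; limma adjusted p = 0.516). The 6 IL-17 ligand genes were below background on every array.

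Il7, a stromal cytokine that lymphocytes need to survive, was at 3.57, 3.39 and 4.11 on KO arrays, against 5.46 and 5.14 on WT arrays. The groups did not overlap and all values were under background (-1.61 ± 0.27, SE; interval -2.40 to -0.81; limma adjusted p = 0.162). Its receptor Il7r and the 10 other genes of the common gamma chain family were below background as well, with log2 differences from -0.046 for Il9 to 0.22 for Il2rb. Il3ra, the IL-3 receptor chain, was at 6.57, 5.50 and 5.71 on KO arrays and at 6.01 and 6.23 on WT arrays, with overlap (-0.19; limma adjusted p = 0.822). The 6 genes of the IL-12 family were below background on every array, as were Il16 and Il34, a ligand of the CSF-1 receptor.

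**Figure D5:**
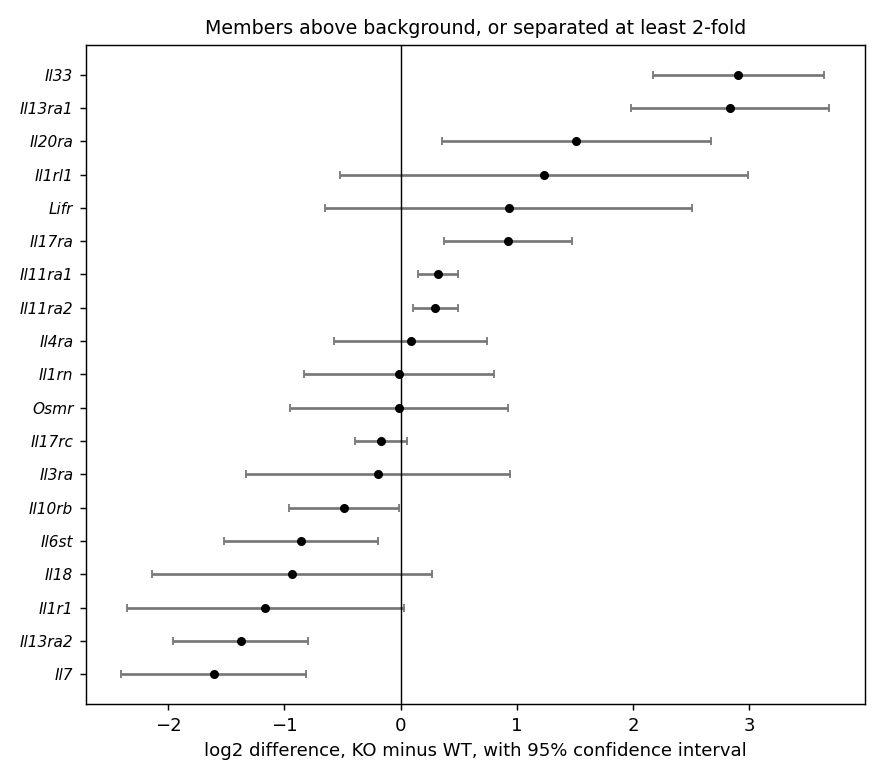
Log2 difference, KO minus WT (horizontal axis), with the 95% confidence interval of the moderated limma estimate, for the 19 genes (vertical axis) whose mean lay above background or whose groups were separated at least 2-fold. The intervals of Il33 (2.17 to 3.64) and Il13ra1 (1.98 to 3.69) lie farthest from 0, and those of Osmr and Il1rn span it almost evenly.

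KO replicate 2 stood lower than the other KO arrays for many of the receptors. Among the 15 members with a mean above 5.90, it was the lowest KO array in 9 (Il1rn, Il1r1, Il1rl1, Il4ra, Il13ra1, Il6st, Osmr, Lifr and Il3ra), 60.0% against 20.5% of the 6447 genes with such a mean. It was the lowest of all 5 arrays in 6 of the 15, against 10.9% of those genes. Without this array the log2 difference of Il1r1 was -0.83, and those of Osmr and Il1rn became 0.23 and 0.14, while Il33 differed by 3.05 and Il13ra1 by 3.08. Lifr and Il18 were then also separated at least 2-fold, and Il1r1 was not.

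Downstream of the receptors, no gene of the pathway lists passed limma's adjusted test. Among 11 JAK and STAT genes 0 passed, with 1 higher and 2 lower on KO arrays at an unadjusted p under 0.05 and a median log2 difference of -0.058. The counts at an unadjusted p here and in the lists that follow stand beside 5.36% higher and 8.29% lower over all genes, whose median was 0. Stat2 differed by -1.05 and Stat3, the main transducer of gp130, by -0.64 (limma adjusted p = 0.554 and 0.327). Among 15 feedback inhibitors 0 passed, with 1 higher and 1 lower at an unadjusted p under 0.05 and a median of -0.013, the differences of largest size being those of Ptpn2 (0.60), Socs2 (0.47) and Socs6 (-0.38).

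For 28 adaptors and NF-kB genes 0 passed in limma, with 4 higher and 3 lower at an unadjusted p under 0.05 (all genes 5.36% and 8.29%) and a median of 0. Irak3, an inhibitor of IL-1 receptor signalling, differed by 0.95, Casp4 by 0.84 and the NF-kB inhibitor Nfkbib by -0.75 (limma adjusted p = 0.300, 0.424 and 0.290). Of 18 response genes of IL-1 and NF-kB in fibroblasts 0 passed, 3 were higher and 0 lower at an unadjusted p under 0.05 (all genes 5.36% and 8.29%) and the median was 0.11. The iron-binding lipocalin gene Lcn2 was at 10.98, 9.01 and 10.63 on KO arrays, against 7.33 and 7.77 on WT arrays (2.65; limma adjusted p = 0.274). Saa3, an acute-phase protein gene, differed by 2.41 and Mmp3, a matrix protease gene below background on all arrays, by 2.08 (limma adjusted p = 0.219 and 0.395). In 3 of the 18 the groups did not overlap and the KO mean was higher at least 2-fold, against 2.14% of all genes, and in 2 it was lower, against 1.78%. Those with a lower KO mean, Ccl20 and Ptgs2, are named after the values were seen. Ccl20 was above background on WT replicate 2 alone. Ptgs2, which encodes cyclooxygenase 2, was at 8.03, 6.95 and 8.90 on KO arrays, against 9.50 and 10.16 on WT arrays (-1.87; limma adjusted p = 0.406).

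Of 14 response genes of STAT3 0 passed, with 2 higher and 0 lower at an unadjusted p under 0.05 (all genes 5.36% and 8.29%) and a median of 0.23. The acute-phase gene Hp, for haptoglobin, was at 8.39, 6.41 and 6.60 on KO arrays, against 3.35 and 4.11 on WT arrays (3.40; limma adjusted p = 0.222). Myc differed by 1.93 and Tgm2, a transglutaminase gene, by 1.31 (limma adjusted p = 0.158 and 0.397). In 19 measured relatives without an interleukin name 0 passed, with 2 higher at an unadjusted p under 0.05 and a median of 0.055. Csf1 differed by 0.73 and Cntfr, below background on all arrays, by 0.38.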

How the data were processed

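Total RNA of each culture was amplified, biotin-labelled and hybridised to an Affymetrix array of probe sets that each cover a gene, per the labels' protocols. The authors deposited normalized log2 signals, made with Affymetrix Expression Console per the submitters' processing notes. How signals were summarized and normalized, and by which version, is not given in the sources used here. No detection call was used. An array has no read depth, and its precision is limited by the 5 arrays. Coordinates were taken as NCBIM37, the build in the table's transcript descriptions, since 2759 of 2980 such descriptions overlap their probe set. Promoter windows are RefSeq's, of GRCm38.p6.

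Of 35556 probe sets, 7115 controls were left out. The brightest probe set stood for each of 21630 genes, and 4 members had more than 1. KO was set against WT with limma 3.58.1 (R 4.3.3; lmFit and eBayes without a block, Benjamini-Hochberg over all genes, 0.05), after the code was checked on simulated data. The members and lists were chosen with earlier results of these data known. Members were named if past the adjusted p, if separated at least 2-fold, if among the 6 brightest, or if on a fixed list of IL-1, IL-6, LIF, oncostatin M and IL-13 genes, with up to 4 examples per family beside them. Of each pathway list the 3 largest differences were named, apart from some that are not reported here. Alternatives changed the normalization, filter, probe set rule, variance prior, weights, block and arrays used.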

Additional observations from a re-analysis of the deposited data

How the results depend on the processing

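The count of 0 interleukin genes past limma's adjusted p became 2, Il33 and Il13ra1, with a second quantile normalization, with array medians subtracted, with dim genes left out (38 of the 89 remained in the test) and without the genes that had equal values. It was 0 with the mean of all probe sets, a trended or robust prior, array weights and the series matrix values. Leaving out each KO array in turn also gave 0. Leaving out a WT array leaves 1 in that group, so counts past a p threshold are not given for those fits. The count at an unadjusted p, 13 as reported, was 10 to 15 in the alternatives that kept both WT arrays. The count separated at least 2-fold, 7 as reported, was 6 to 9, and its share of all genes is not given for the alternatives. The pathway lists gave 0 past the adjusted p in every alternative that kept both WT arrays. Over all genes 65 passed, against 363 after the second quantile normalization, 250 with medians subtracted and 270 with dim genes left out. With equal genes left out 359 passed, with array weights 107, and without KO replicates 1, 2 and 3 there were 0, 2 and 0. Dropping the 1589 genes whose signal never varied moved limma's variance prior. Its SD went from 0.028 to 0.084 and its degrees of freedom from 0.63 to 1.44. The adjusted p of Il33 was then 0.0205 and that of Il13ra1 0.0295. The same step cut the number of genes adjusted over to 20041, and the part of each change was not tested. For the other shifts the cause was not tested.

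The direction of 4 genes turned. Il1rn became 0.051 with quantile normalization and 0.044 with array weights, and ran from -0.26 to 0.23 as each array was left out. Osmr became 0.051 and 0.062 in the same settings and ran from -0.25 to 0.23. Il6ra became -0.000907 with medians subtracted and ran from -0.14 to 0.19, and Lif ran from -1.81 to 0.095. Of 295 values of single genes under alternatives, 275 kept their direction and their side of the threshold. With the replicate number as a block, 0 interleukin genes and 0 of all genes passed, and 11 interleukin genes had an unadjusted p under 0.05. The share of all genes at an unadjusted p is not given for this or the other alternatives, so such counts are not set against background. Only numbers 2 and 3 occur in both groups and the labels do not say that they pair arrays. Deviations of same-numbered arrays correlated at -0.17 and -0.14. With only 2 WT arrays their deviations mirror each other, so these values cannot show or exclude pairing. The block was not used, since no method states a pairing. Background limits all genes but the 9 above it on all arrays.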
